A study of Mus musculus with 5 samples.

Results

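Potassium channel genes were followed here as 1 family, taken as every gene symbol in the expression files that starts with Kcn. The rule found 95 symbols among the 23420 of the files, and 72 of these had a mean value of at least 5 over the 5 libraries, the level above which 13550 of all genes lay. These 72 are called members with a mean of at least 5, and 23 members lay under it. The symbols cover the 20 subfamilies from Kcna to Kcnv together with 2 genes that make no channel subunit, the antisense transcript Kcnq1ot1 and the channel regulator Kcnrg.

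The values came from RNA-Seq of the micro-dissected dentate gyrus (DG) of adult male wild-type CD1 mice, an outbred strain. The LD library was made from mice housed individually with a locked running disk, the CE (complex environment) library from mice housed 3 per cage with a locked disk and tunnels, and the RUN library from mice housed individually with a running disk. Each of these held the pooled polyA RNA of 8 mice after 4 weeks, and the age label of the samples is 4 months. The L-RUN and H-RUN libraries held the RNA of the 4 low-distance and the 4 high-distance runners of the same RUN mice, so the 3 running libraries share animals. Each group was 1 library and had no replicate check, and no p-value is given. LD is the shared control of 4 of the 5 comparisons, and the fifth set H-RUN against L-RUN. CE differed from LD in company as well as in tunnels, and those factors cannot be told apart.

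Each value is a regularized log (rlog), a log2 scale on which the authors normalized the 5 libraries together and drew each gene towards its own mean, most strongly where counts are low. A difference of 0.3 on this scale, or 1.23-fold, was called, which is the size cut-off of the study. Since equal amounts of RNA were pooled, RUN was taken as a 1 to 1 blend of its low and high runners, and its residual from that blend gave a technical SD of a difference between libraries of 0.0365 over all genes and of 0.0222 to 0.0473 over the deciles of expression. This SD covers library preparation and sequencing but not differences between mice. Read depth is unknown, since the files used here hold no counts.

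Potassium channels let potassium leave a cell along its gradient, and in neurons they set the resting potential, repolarize the action potential and decide how readily a cell fires again. Voltage-gated subunits assemble as tetramers that open on depolarization, inward rectifiers and two-pore-domain channels carry current near rest, and calcium-activated channels couple the membrane to calcium entry. Granule cells of the DG fire sparsely and rest at a negative potential, while astrocytes use inward rectifiers to clear potassium released by active neurons.

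All pore-forming members share a pore loop whose selectivity filter is built on the signature glycine-tyrosine-glycine in most families. The coding bases of that loop are shown for 7 members whose values were called below, since they are the sequence that makes the family a family. Kcnq3 and Kcnk9, which also form pores and were called, are not among the loops shown and compared. Capitals mark the codons of the signature. Each is 60 bases, 5′ to 3′ on the coding strand and within 1 exon, read from GENCODE transcripts of GRCm38.
Kcnj3: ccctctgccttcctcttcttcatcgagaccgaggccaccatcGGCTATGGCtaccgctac
Kcnj6: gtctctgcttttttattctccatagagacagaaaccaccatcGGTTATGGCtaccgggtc
Kcnma1: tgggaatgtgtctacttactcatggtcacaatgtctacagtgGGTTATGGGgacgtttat
Kcng3: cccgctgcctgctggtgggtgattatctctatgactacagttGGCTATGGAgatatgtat
Kcnf1: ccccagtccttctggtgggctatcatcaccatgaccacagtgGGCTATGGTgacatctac
Kcnj16: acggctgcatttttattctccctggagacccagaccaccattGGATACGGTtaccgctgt
Kcnj2: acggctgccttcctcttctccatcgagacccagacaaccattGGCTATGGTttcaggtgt

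In GRCm38 these stretches are the Kcnj3 loop at chr2:55437591-55437650 (plus strand), the Kcnj6 loop at chr16:94832768-94832827 (minus strand), the Kcnma1 loop at chr14:23528404-23528463 (minus strand) and the Kcng3 loop at chr17:83587905-83587964 (minus strand). The others are the Kcnf1 loop at chr12:17175052-17175111 (minus strand), the Kcnj16 loop at chr11:111024868-111024927 (plus strand) and the Kcnj2 loop at chr11:111072171-111072230 (plus strand). The loops of the G protein-gated subunits Kcnj3 and Kcnj6 were identical at 45 of 60 bases, those of the inward rectifiers Kcnj16 and Kcnj2 at 80.0%, and those of the silent subunits Kcng3 and Kcnf1 at 73.3%. Between an inward rectifier and a voltage-gated type of loop the identity was as low as 41.7%, for Kcnj6 and Kcng3.

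Members differed far more in level than they did between housing conditions. Levels were compared between genes per length, as the mean rlog value minus log2 of the longest transcript in kb. The highest were auxiliary and classical neuronal subunits: Kcnab2, a beta subunit of Kv1 channels, at 11.85, and Kcnip2, a calcium sensor that binds Kv4 channels, at 11.42. The two-pore channel Kcnk1 stood at 10.78, the Kv1 pore subunit Kcna1 at 10.71 and the inward rectifier Kcnj4 at 10.27, each the highest of its class. Other subfamilies were led by the Kv4 pore subunit Kcnd2 at 9.76, the ether-a-go-go type Kcnh3 at 9.68 and the BK beta subunit Kcnmb4 at 9.23.

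The lower subfamilies were led by the silent subunits Kcng2 at 8.44, Kcnv1 at 8.35, Kcns2 at 8.16 and Kcnf1 at 7.79. Among channels opened by calcium or sodium, the leaders per length were the small-conductance Kcnn2 at 8.40 and the sodium-activated Kcnt2 at 7.20. The large-conductance (BK) pore subunit Kcnma1 stood at 7.16. The BK relative Kcnu1, best known from sperm, stood at 5.40. Kcnu1 was placed in the calcium- and sodium-activated class by family, not by what opens it. Kcne1l led the small Kcne subunits at 6.14. These levels are per length and their order was not tested. Gaps between subfamilies of several log2 units stood against ranges of the members over the 5 libraries of at most 0.69.

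**Figure D1:**
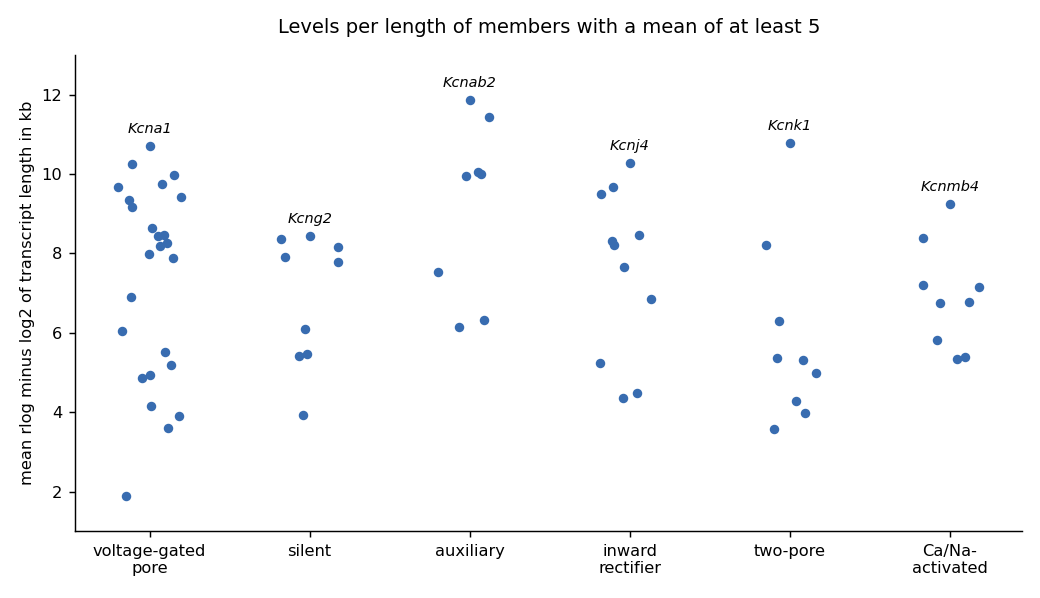
Mean rlog over the 5 libraries minus log2 of the longest transcript in kb (vertical axis, log2) for the 71 channel subunits with a mean of at least 5, by class of subunit, with the top member of each class named and points spread sideways for legibility. The top members run from 11.85 for Kcnab2 among the auxiliary subunits to 8.44 for Kcng2 among the silent ones.

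The members nearest the minimum were Kcna5, a Kv1 subunit, with a mean of 5.13, and Kcnrg, with 4.76. Among those under it were the choroid plexus and epithelial subunits Kcnj13, with 3.59, and Kcne2, with 2.70, and the G protein-gated subunit Kcnj5, with 3.17. Kcnk15 and Kcnk16 were listed at 0 in every library, as were 4588 genes in all. Members under the minimum spanned at most 0.09 over the 5 libraries, a spread that the shrinkage of low counts also narrows, and no difference is read from them.

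Of the 72 members with a mean of at least 5, 62 were called in no comparison and 10 (13.9%) in at least 1, against 4.22% of all genes. In all 4 other libraries 24 members (33.3%) stayed within 3 technical SD of LD, against 52.3% of all genes. The median range over the 5 libraries was 0.166 for members and 0.124 for all genes. The range over the 5 libraries reached 0.3 for 14 members (19.4%), against 5.12% of all genes. The steadiest member was Kcnip4, which binds Kv4 channels, with a range of 0.05.

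Every call against LD was in a running library. In CE, 0 of 72 members were called, against 0.598% of all genes, 0.332% higher and 0.266% lower. In RUN, 3 were called (1.31% of all genes), of which 2 were lower (0.952% of all genes) and 1 higher (0.362%). In L-RUN, 6 were called (3.13% of all genes) and all 6 were lower than LD, a direction that 2.33% of all genes took, while 0.797% were higher. In H-RUN, 4 were called (0.827% of all genes), 3 lower (0.472%) and 1 higher (0.354%). Between the running libraries, 2 members were called (1.54% of all genes), both higher in H-RUN than in L-RUN (0.974% of all genes, with 0.561% lower).

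A smaller yardstick, chosen after the values were seen, was a difference past 3 technical SD. By it 30 members were lower and 6 higher in L-RUN, against 19.5% and 13.2% of all genes. In RUN the numbers were 23 lower and 9 higher, against 14.4% and 9.9%. In H-RUN they were 12 lower and 9 higher, against 10.4% and 8.39%, and in CE they were 12 lower and 12 higher, against 13% and 10.7%. H-RUN exceeded L-RUN by this margin in 23 members and lay below it in 6, against 13.7% and 8.44%.

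The family as a whole sat slightly lower in L-RUN. Its median difference from LD was -0.06, where the median of all genes was -0.00, and 45 of 72 members (62.5%) lay below 0, against 50.7% of all genes. Medians in the other comparisons with LD were -0.01 in H-RUN, -0.03 in RUN and 0.01 in CE, and the median of H-RUN minus L-RUN was 0.07. L-RUN was the lowest of the 5 libraries for 37 members (51.4%), against 28.1% of all genes, and LD was the highest for 23 (31.9%), against 28.1%.

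By class, the L-RUN medians were lowest for the voltage-gated pore subunits, at -0.14 over 25 members, and the silent subunits, at -0.12 over 9. They were -0.06 for 11 inward rectifiers and -0.05 for 9 two-pore channels, and above 0 for 9 calcium- and sodium-activated channels (0.04) and 8 auxiliary subunits (0.03). Of the 25 voltage-gated pore subunits, LD was the highest library for 15 and L-RUN the lowest for 15. In H-RUN the medians of these classes ran from -0.03 to 0.06. The L-RUN order of the classes did not hold once a trend with transcript length was removed, as given with the length values.

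**Figure D2:**
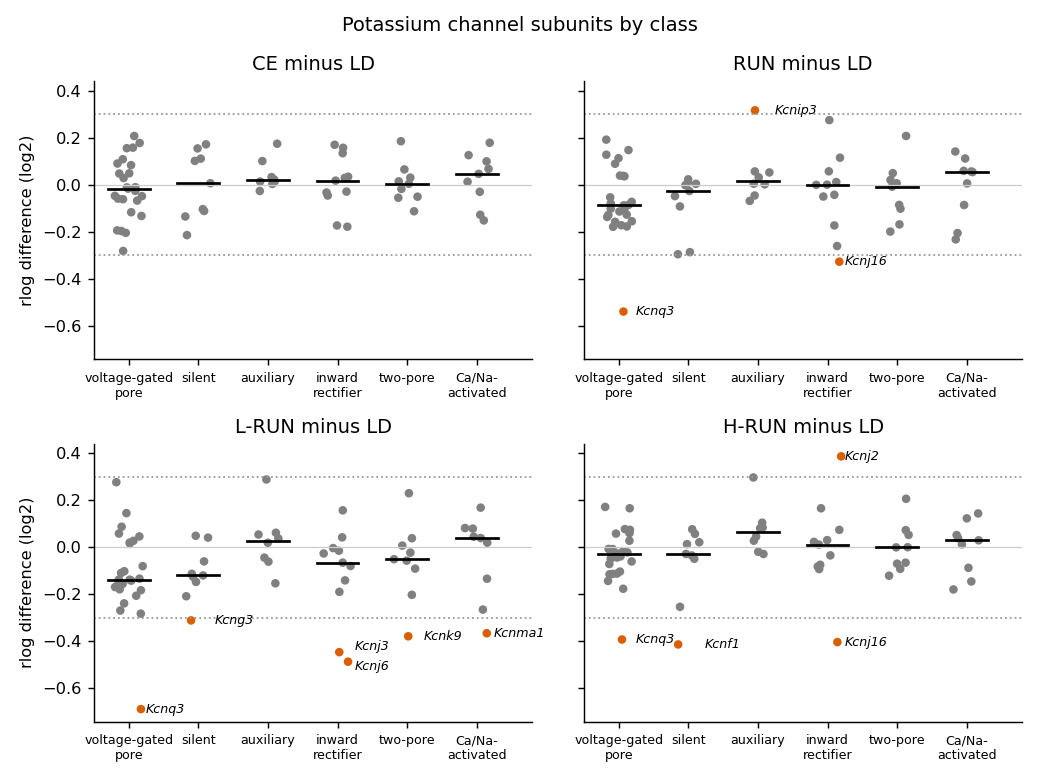
Difference of each member with a mean of at least 5 from LD (rlog, log2) in CE, RUN, L-RUN and H-RUN, by class of subunit, with black bars at class medians, dotted lines at 0.3 in size and called members in orange. No point passes the dotted lines in CE, and the 6 called points in L-RUN all lie below -0.3.

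The largest difference in the family was that of Kcnq3, a subunit of the M-channel, the slowly opening KCNQ current that muscarinic receptors close. Kcnq3 (chr15:65986387-66286642, minus strand) had rlog values of 8.75 in H-RUN, 8.60 in RUN, 8.45 in L-RUN, 8.86 in CE and 9.14 in LD. LD was the highest library, CE came next and the 3 running libraries were lowest. The difference was -0.69 in L-RUN, or 1.61-fold, -0.54 in RUN and -0.39 in H-RUN, with a technical SD of 0.0473. CE differed by -0.28, just under the cut-off. Against LD averaged with CE, the H-RUN difference was -0.25 and no longer called.

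Kcnq5, another M-channel subunit, had rlog values of 10.73 in H-RUN, 10.59 in RUN, 10.53 in L-RUN, 10.88 in CE and 10.70 in LD. Kcnq5 was highest in CE and lowest in L-RUN, a range of 0.35 with no call.

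**Figure D3:**
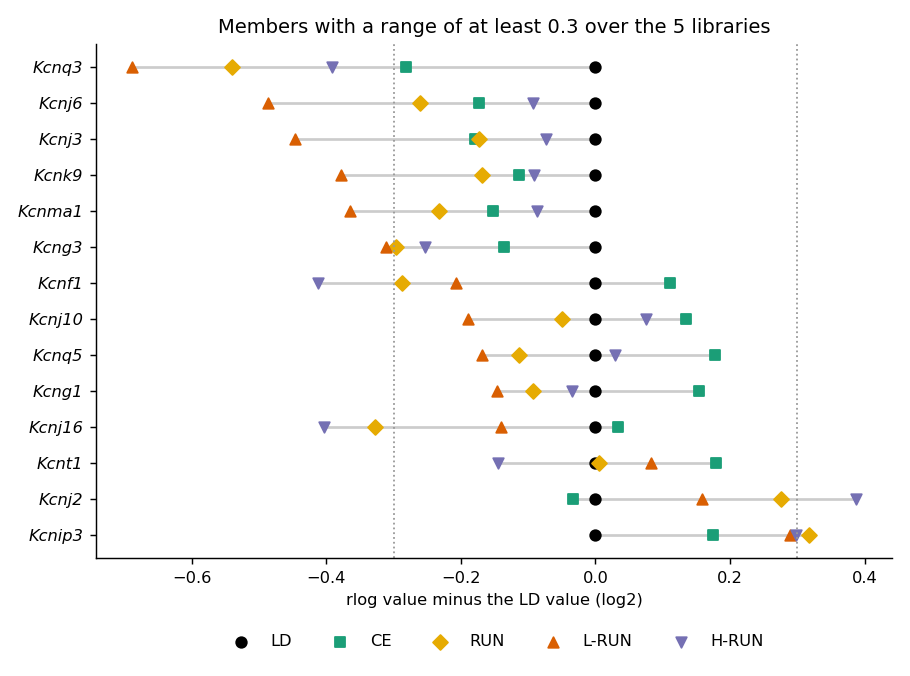
Value in each library minus the LD value (rlog, log2) for the 14 members whose 5 values span at least 0.3, with dotted lines at 0.3 in size. Kcnq3 lies left of the other members in L-RUN at -0.69, Kcnj6, Kcnj3, Kcnk9, Kcnma1 and Kcng3 pass the line in L-RUN alone, and Kcnj2 passes it on the right in H-RUN alone.

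The second set of lower members was a pair of G protein-gated inward rectifiers (GIRK), which inhibitory receptors such as GABA-B open through G protein beta-gamma subunits. Kcnj6 (chr16:94748636-94997701, minus strand) had rlog values of 10.28 in H-RUN, 10.11 in RUN, 9.88 in L-RUN, 10.19 in CE and 10.37 in LD. Kcnj3 (chr2:55435970-55598145, plus strand) had rlog values of 10.69 in H-RUN, 10.59 in RUN, 10.32 in L-RUN, 10.59 in CE and 10.77 in LD. For both genes LD was the highest library and H-RUN the next, CE and RUN lay between, and L-RUN stood apart at the bottom.

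The L-RUN difference was -0.49 for Kcnj6, or 1.40-fold, and -0.45 for Kcnj3, with technical SDs of 0.0403 and 0.0362. H-RUN differed from LD by only -0.09 and -0.07. They were the 2 members called between the running libraries, where H-RUN was higher than L-RUN by 0.39 and 0.37. That comparison uses no mouse of LD, but it shares the L-RUN library with the comparison against LD.

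The other GIRK subunits gave no call. Kcnj9 had rlog values of 11.45 in H-RUN, 11.43 in RUN, 11.40 in L-RUN, 11.57 in CE and 11.42 in LD, with CE highest and the running libraries within 0.03 of LD. Kcnj5 was under the minimum. Exons of Kcnj3 and Kcnj6 overlap annotated genes on the opposite strand over 1621 and 380 bases. Those genes had no values here under their annotated names. If counting ignored strand, their reads in the overlap could have been counted for Kcnj3 and Kcnj6. The sources used here do not state whether it did.

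The start regions of these paired members are shown because their values moved in the same library. Each window is the 250 bases before an annotated start in the RefSeq table of GRCm38.p6, 5′ to 3′ on the gene's strand, with capitals where a searched motif matched on either strand. Kcnj6 has 2 annotated starts with a window, and the upstream one is printed.
Kcnj3: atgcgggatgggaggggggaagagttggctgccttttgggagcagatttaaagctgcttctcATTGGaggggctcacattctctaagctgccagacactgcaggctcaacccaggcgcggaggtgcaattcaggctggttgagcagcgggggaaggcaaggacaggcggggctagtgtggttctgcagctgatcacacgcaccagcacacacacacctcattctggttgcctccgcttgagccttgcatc
Kcnj6: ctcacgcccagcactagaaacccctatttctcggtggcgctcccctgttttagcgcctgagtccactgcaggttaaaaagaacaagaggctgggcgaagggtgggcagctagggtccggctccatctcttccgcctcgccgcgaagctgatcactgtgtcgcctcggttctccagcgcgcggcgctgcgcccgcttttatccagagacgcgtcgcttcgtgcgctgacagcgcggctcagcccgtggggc

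The Kcnj3 window is chr2:55435720-55435969 on the plus strand and the Kcnj6 window chr16:94997697-94997946 on the minus strand. The search covered TGACG (a CREB half-site), CACGTG (an E-box), GGGCGG (a GC box), TATAAA and CCAAT, on both strands, and none of these motifs contains another. The capitals in Kcnj3 mark 1 CCAAT box in reverse orientation, a motif present in 33.8% of 32851 windows of the same length. None of the 5 motifs was in the Kcnj6 window shown, and its other window held 1 GC box, as 32.7% of windows did. Shares for the remaining motifs were 17.8% for TGACG, 6.02% for CACGTG and 12.4% for TATAAA. A match is only a match of letters. Windows were found for 70 of the 95 members and 8 of the 10 called ones, which did not include Kcnq3 and Kcnk9.

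Genes that regulate GIRK channels were read beside them, as 16 genes of which 16 had a mean of at least 5. Rgs4, which speeds the closing of these channels by G protein alpha subunits, rose by 0.37 in RUN, and by 0.38 and 0.42 in its low and high runners. Rgs7bp, an anchor for a related RGS complex, had a difference of -0.37 in L-RUN. Gabbr2, a GABA-B receptor subunit, had a difference of -0.33 in L-RUN and was 0.31 higher in H-RUN than in L-RUN. The other 13 genes, among them Gnao1 and Gabbr1, were called in no comparison.

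Other inward rectifiers moved in H-RUN. Kcnj2, a strong rectifier that holds the resting potential, lies at chr11:111066164-111076821, plus strand, and had rlog values of 10.33 in H-RUN, 10.22 in RUN, 10.10 in L-RUN, 9.91 in CE and 9.94 in LD. LD and CE were lowest, L-RUN and RUN lay above them and H-RUN was highest. The H-RUN difference was 0.39, or 1.31-fold, with a technical SD of 0.0403, and it was called. The RUN difference of 0.28 and the L-RUN difference of 0.16 were not called.

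Kcnj16, which joins the glial subunit Kcnj10 in astrocyte channels, took the opposite course. It lies on the same chromosome (chr11:110968033-111027968, plus strand) and had rlog values of 8.51 in H-RUN, 8.58 in RUN, 8.77 in L-RUN, 8.95 in CE and 8.91 in LD. LD and CE were highest and H-RUN lowest, with L-RUN closest to the controls among the runners. The difference was -0.40 in H-RUN and -0.33 in RUN, both called, and -0.14 in L-RUN, with a technical SD of 0.0473.

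Kcnj10 itself, the main potassium-buffering subunit of astrocytes, had rlog values of 12.19 in H-RUN, 12.07 in RUN, 11.93 in L-RUN, 12.25 in CE and 12.12 in LD. CE was highest and L-RUN lowest, so the range reached 0.32 with no call, and H-RUN was 0.07 above LD. Of 8 astrocyte markers, all with a mean of at least 5, 7 lay below LD in L-RUN and 1 above. The called ones were the glutamate transporters Slc1a2 (-0.36) and Slc1a3 (-0.30), which were lower, and the connexin Gjb6 (0.34), which was higher. In H-RUN 0 of the 8 were called against LD, and 5 lay below it. The summed level of the list ranged from 16.45 in L-RUN to 16.73 in LD, and its part in the result was not tested. Bulk RNA cannot tell fewer cells of a type from less RNA per cell.

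Among the remaining inward rectifiers, Kcnj4 and the ATP-sensitive pore subunit Kcnj11 had ranges of 0.17 and 0.09. Kcnj8, the ATP-sensitive subunit of pericytes and smooth muscle, was near the minimum with a mean of 5.71 and a range of 0.06.

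Of the two-pore-domain channels, which leak potassium at rest, only Kcnk9 was called. Kcnk9 (chr15:72501089-72546340, minus strand), an acid-sensitive leak subunit, had rlog values of 7.25 in H-RUN, 7.17 in RUN, 6.96 in L-RUN, 7.23 in CE and 7.34 in LD. L-RUN was the lowest library by a margin and LD the highest. The L-RUN difference was -0.38, with a technical SD of 0.0438. Its acid-sensitive relative Kcnk3 had a range of 0.12. Kcnk1, the most abundant of the class per length, had rlog values of 12.02 in H-RUN, 12.02 in RUN, 12.05 in L-RUN, 11.80 in CE and 11.81 in LD, so that the 3 running libraries lay 0.21 to 0.23 above LD, under the cut-off.

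The calcium-activated channels gave 1 call as well. Kcnma1 (chr14:23289431-24014491, minus strand), the BK pore subunit that opens on calcium and depolarization together, had rlog values of 10.84 in H-RUN, 10.69 in RUN, 10.56 in L-RUN, 10.77 in CE and 10.92 in LD. LD was highest, and L-RUN was lowest at a difference of -0.37, with a technical SD of 0.0308. Against LD averaged with CE it was -0.29 and under the cut-off. Exons of Kcnma1 overlap an opposite-strand transcript over 1016 bases.

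The BK beta subunits had no call. Kcnmb4, the neuronal one, was higher than LD in every other library, by 0.04 to 0.12, and Kcnmb2 had a range of 0.17. Kcnn3, a small-conductance subunit that shapes the afterhyperpolarization, had rlog values of 8.84 in H-RUN, 8.81 in RUN, 8.75 in L-RUN, 9.03 in CE and 9.01 in LD, with LD and CE highest and L-RUN lowest at a difference of -0.26. Kcnt1, a sodium-activated subunit, had rlog values of 9.31 in H-RUN, 9.46 in RUN, 9.54 in L-RUN, 9.64 in CE and 9.46 in LD. CE was its highest library and H-RUN its lowest, with no call.

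Kv1 to Kv4 pore subunits, which shape the action potential and its back-propagation, gave no call. Kcna1 had rlog values of 12.79 in H-RUN, 12.69 in RUN, 12.61 in L-RUN, 12.66 in CE and 12.85 in LD, and Kcna2 had rlog values of 12.08 in H-RUN, 11.96 in RUN, 11.82 in L-RUN, 11.89 in CE and 12.09 in LD. Both axonal subunits were highest in LD, nearly as high in H-RUN and lowest in L-RUN, with L-RUN differences of -0.24 and -0.27. With the length trend removed these were -0.22 and -0.13, and Kcna2 in H-RUN was 0.06 above LD in place of -0.01. Kcna3 came closest to the cut-off among Kv1 subunits, at -0.28 in L-RUN. The ranges were 0.16 for Kcnb2, 0.13 for Kcnd2 and 0.11 for Kcnd3. In the ether-a-go-go family Kcnh4 was higher in every other library than in LD, most in L-RUN at 0.28.

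Silent subunits form no channel alone and modify Kv2 channels. Kcnf1 (chr12:17172100-17176888, minus strand) had rlog values of 9.80 in H-RUN, 9.92 in RUN, 10.0003 in L-RUN, 10.32 in CE and 10.21 in LD. CE and LD were highest and H-RUN lowest, with differences of -0.41 in H-RUN, which was called, -0.29 in RUN and -0.21 in L-RUN, and a technical SD of 0.0403. Kcng3 (chr17:83585957-83631895, minus strand) had rlog values of 5.62 in H-RUN, 5.57 in RUN, 5.56 in L-RUN, 5.73 in CE and 5.87 in LD. The 3 running libraries lay together below CE and LD, and the L-RUN difference of -0.31 was called while the RUN difference of -0.296 was just under the cut-off. With LD and CE together as baseline the L-RUN value of Kcng3 was -0.24. Its mean of 5.67 was near the minimum, and with a minimum mean of 7 Kcng3 dropped out and 5 members were called in L-RUN. Kcng1 had a range of 0.30, from 9.81 in L-RUN to 10.11 in CE.

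The only call above LD in the auxiliary class was Kcnip3, a calcium sensor that binds Kv4 channels and, in the nucleus, DNA. Kcnip3 (chr2:127456498-127522094, minus strand) had rlog values of 11.53 in H-RUN, 11.55 in RUN, 11.52 in L-RUN, 11.40 in CE and 11.23 in LD. LD was lowest, CE lay above it and the 3 running libraries stood together at the top. The differences were 0.32 in RUN, which was called, and 0.298 in H-RUN and 0.29 in L-RUN, both just under the cut-off, with a technical SD of 0.0282. CE was 0.17 above LD, and against LD averaged with CE the RUN value was 0.23 and not called. The other Kv4-binding members Kcnip1, Kcnip2 and Kcnip4 had ranges of 0.05 to 0.08.

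Transcript length moved with the differences, in members and in all genes alike. In L-RUN the rank correlation with the longest transcript was -0.53 across 71 members and -0.51 across 13452 genes, a description across genes that share the same libraries. Kcnq1ot1, with 93092 bases and an L-RUN difference of 0.05, was left out of the members here and in the length classes. Members under 3000 bases (18) had a median L-RUN difference of 0.04, those from 3000 to under 6000 (38) of -0.08 and those of 6000 or more (15) of -0.18, where all genes had 0.05, -0.02 and -0.11. The calls in the longest class were Kcnq3, Kcnk9 and Kcnma1.

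With the trend over all genes subtracted, the median of the 72 members, Kcnq1ot1 among them, was -0.04 in L-RUN in place of -0.06. That of H-RUN minus L-RUN was 0.04 in place of 0.07. The L-RUN medians by class were -0.03 for the voltage-gated pore subunits, -0.09 for the silent subunits, -0.09 for the inward rectifiers, -0.04 for the two-pore channels, -0.00 for the auxiliary subunits and 0.02 for the calcium- and sodium-activated channels. The voltage-gated pore subunits, lowest before, then lay above 3 other classes. On that scale the L-RUN differences were -0.54 for Kcnq3, -0.48 for Kcnj6, -0.39 for Kcnj3 and -0.31 for Kcng3, all still called. Kcnk9 and Kcnma1 came to -0.23 and -0.22 and lost the call, and Kcna3 passed it at -0.33. In H-RUN the same 4 genes were called after the trend was removed, and between H-RUN and L-RUN the same 2. In RUN, Kcnj2 joined the 3 called genes at 0.32.

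**Figure D4:**
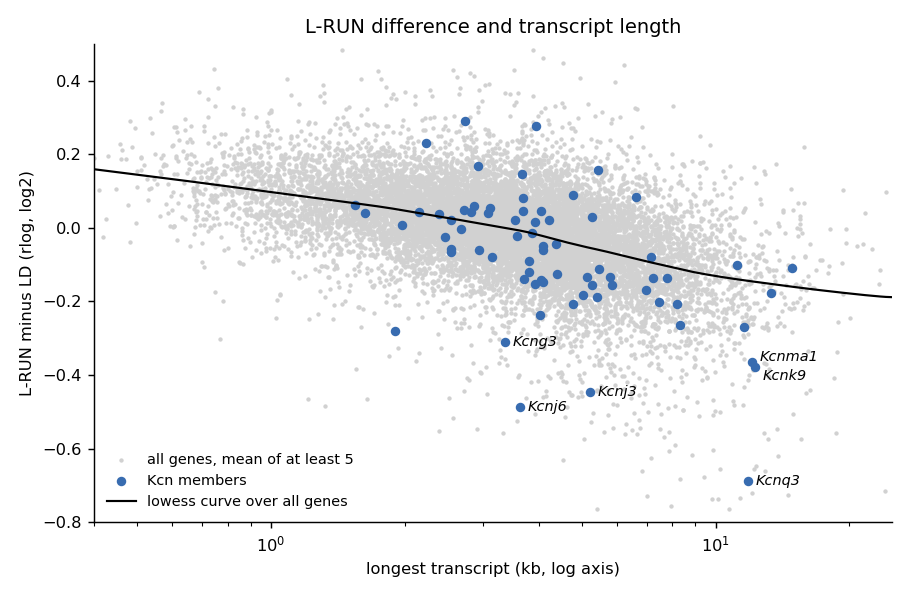
L-RUN minus LD (rlog, log2) against the longest transcript (kb, log axis) for genes with a mean of at least 5, with members in blue, a lowess curve over all genes in black and genes outside the axes not drawn. Kcnq3, Kcnj6, Kcnj3 and Kcng3 lie at least 0.3 below the curve, and Kcnk9 and Kcnma1 lie 0.23 and 0.22 below it.

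The RUN library carries the RNA of both sets of runners and was set beside the 1 to 1 blend of L-RUN and H-RUN. For 58 of 72 members the RUN value fell inside the span of the other running libraries. The technical SD was estimated from such residuals over all genes, so the residuals of the members are no separate check of it. The median residual was 0.0157 in size and the largest was 0.0815, for the silent subunit Kcng4. Kcnq3 differed from its blend by -0.01, Kcnj2 by -0.00 and Kcnj16 by -0.06. This repeats the libraries and not the mice.

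**Figure D5:**
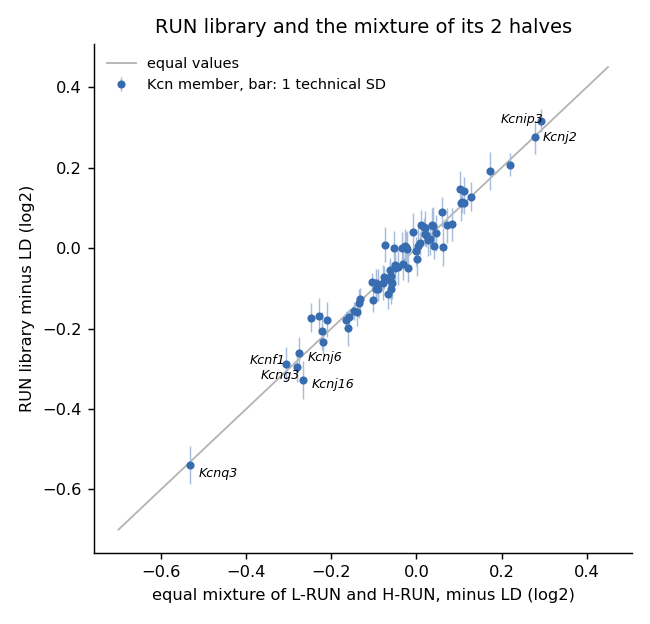
RUN minus LD (vertical) against the 1 to 1 blend of its low and high runners minus LD (horizontal, both rlog, log2) for the 72 members with a mean of at least 5, with bars of 1 technical SD and a line of equal values. The points follow the line from Kcnq3 at the lower left to Kcnip3 at the upper right, with a largest residual of 0.0815. The bars were estimated from such residuals over all genes.

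Genes that assemble with, anchor or accompany these channels were taken as 9 lists. Of 52 such genes 49 had a mean of at least 5, and 3 of these (6.12%), Rgs4, Rgs7bp and Gabbr2, were called in at least 1 comparison, against 4.22% of all genes. All 3 were called in L-RUN, 2 lower and 1 higher, where 3.13% of all genes were called. No call was made among the 8 genes that cluster Kv1 channels, such as Dlg4 and Lgi1, the 5 that accompany Kv2 and Kv4, the 2 sulfonylurea receptors, the 2 ankyrins, the 6 Na,K-ATPase genes or the 5 cation-chloride cotransporters. The same held for 2 BK gamma subunits and 3 HCN channels, the members of those lists with a mean of at least 5. The L-RUN medians of these lists ran from -0.11 for the sulfonylurea receptors to 0.09 for the BK gamma subunits.

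The markers of the cells the dissection could hold gave the following. All 9 of 9 granule cell markers had a mean of at least 5, the summed level ranged from 15.34 in CE to 15.52 in LD, and in L-RUN Prox1 was lower (-0.41) and C1ql2 higher (0.37), while C1ql2 was also higher in RUN (0.37) and H-RUN (0.40). Of 6 CA1 pyramidal cell markers, 4 were lower in L-RUN, and the summed level of the list ranged from 11.86 in L-RUN to 12.34 in CE. Of 10 leptomeningeal fibroblast markers, 7 were higher in L-RUN, and the summed level ranged from 11.49 in H-RUN to 12.26 in L-RUN. The summed level of 7 oligodendrocyte markers ranged from 14.83 in L-RUN to 15.05 in LD. The summed levels of the remaining lists, for CA2 and CA3 neurons, interneurons, oligodendrocyte precursors, microglia, endothelial cells, pericytes, choroid plexus and ependyma, spanned 0.09 to 0.24 over the libraries. Of the 13 marker lists, L-RUN, the library with the most called members, had the lowest summed level for 5 (CA1, CA2 and CA3, astrocytes, oligodendrocytes and microglia) and the highest for 2 (fibroblasts and pericytes). Between the running libraries, 3 of 6 CA1, 1 of 9 granule cell and 1 of 8 astrocyte markers were called higher in H-RUN than in L-RUN. Called lower in H-RUN were 9 of 10 fibroblast and 2 of 7 pericyte markers. The remaining lists had no call in that comparison, where 0.974% of all genes were called higher and 0.561% lower. The part of the marker lists in the results was not tested. Choroid plexus markers were sparse, with 3 of 8 at a mean of at least 5 and its defining factor Otx2 at 2.30.

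Of the genes that are no channel subunits, Kcnq1ot1, the imprinted antisense transcript of the Kcnq1 locus, had rlog values of 9.96 in H-RUN, 10.04 in RUN, 10.13 in L-RUN, 9.996 in CE and 10.08 in LD, a range of 0.17 with L-RUN highest and H-RUN lowest. Kcnq1, the gene it overlaps, was under the minimum at a mean of 3.84.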

How the data were processed

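RNA of the dentate gyrus from 5 groups of mice was sequenced as 1 polyA library of pooled RNA per group. Per the labels and the methods of the study, the authors trimmed the reads (CASAVA 1.8.2), mapped them to mm10 with TopHat2 2.0.10, summed reads per RefSeq gene in HTSeq and normalized the 5 libraries jointly in DESeq2 1.10.1. The deposited values are regularized logs (log2 unit), and these were used as they are. Shrinkage could not be undone without counts, and it understates differences of low genes. Whether counting used strand is not given in the sources used here.

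Members and lists were chosen with earlier results of these data known. Differences were taken between libraries and called at 0.3 or more in size among 13550 genes with a mean of at least 5. The technical SD came from the median absolute deviation of RUN from the 1 to 1 blend of the other running libraries, averaged before logs were taken, in 10 deciles of mean level, with the variance of a residual taken as 1.5 and that of a difference as 2 times that of 1 library. The trend with the longest GENCODE transcript (99.3% of these genes had one) was removed with a lowess curve (fraction 0.3). The summed level of a list is log2 of the sum of its genes on the linear scale.

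Genes named are those called in any comparison or with a range of at least 0.3, the top member per length of each subfamily, the members next to a mean of 5, non-coding members, members typical of glia, vessels or choroid plexus, and partner subunits of called members. Kcna2, Kcna3, Kcng4, Kcnh4, Kcnip1, Kcnip4, Kcnj11, Kcnk15, Kcnk16, Kcnk3, Kcnn3 and Kcnq1 fall outside this rule and were named after their values were seen. Some members that the rule names are not reported here. Sequences came from GENCODE transcripts and a RefSeq table of upstream windows, both of GRCm38. The scripts, in python 3.11.15 with statsmodels 0.14.6, scipy 1.17.1, pandas 2.3.3, matplotlib 3.10.9 and numpy 2.4.6, were tested on simulated data.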

Additional observations from a re-analysis of the deposited data

Results flagged for a closer look

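Kcnq5, an M-channel subunit, differed from LD in opposite directions in the running-independent and the running library, by 0.18 in CE and by -0.11 in RUN. Both differences were past 3 technical SD and under the cut-off of 0.3. The runners did not move together, since L-RUN differed from LD by -0.17 and H-RUN by 0.03, on the same side as CE. The 1 to 1 blend of L-RUN and H-RUN differed from LD by -0.07. With the length trend removed the RUN difference was -0.0453, or -0.0726 with summed exon length, under 3 technical SD (technical SD 0.0362), and the CE difference was 0.22 or 0.21. Exons of Kcnq5 overlap a lincRNA on the opposite strand over 237 bases. With 1 library per group the difference between these comparisons was not tested, and they share the LD library.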

How the results depend on the processing

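With a cut-off of 0.4 in place of 0.3, the called members numbered 1 in RUN (Kcnq3), 3 in L-RUN (Kcnj3, Kcnj6 and Kcnq3), 2 in H-RUN (Kcnf1 and Kcnj16) and 0 for H-RUN minus L-RUN. With 3 technical SD in place of 0.3, chosen after seeing the data, they numbered 24 in CE, 32 in RUN, 36 in L-RUN, 21 in H-RUN and 29 for H-RUN minus L-RUN. Without a minimum mean, the median of the members was -0.00794 in L-RUN and 0.0266 for H-RUN minus L-RUN, since 23 low members with nearly no spread then counted. Centring, quantile normalization, a minimum mean of 7, LD with CE as baseline, a cut-off of 0.3 joined to 3 technical SD, leaving out Kcnq1ot1 and Kcnrg, and both forms of the length correction kept every count within 1.5 times. Of 322 values of the 14 members with a range of at least 0.3, recomputed under 5 of these settings, 228 moved by less than their technical SD, 94 by more, and 0 of the called ones changed sign. The genes behind a count could still change. Kcnip3 passed the cut-off in L-RUN and H-RUN after quantile normalization, and in H-RUN after centring. With LD and CE as baseline, Kcnf1 was called in RUN at -0.34 and Kcnip3 was not. After quantile normalization Kcnq3 was also called for H-RUN minus L-RUN, at 0.302. The technical SD was 0.0365 as well with the blend taken on the log scale. No paired analysis was possible because each group was 1 library, and leaving out a replicate was not possible either. Depth is unknown, low members are shrunk most, and pooled RNA hides the spread between mice.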
